A study of Mus musculus with 8 samples.

Results

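Creb5 and its relatives Creb1, Crem, Atf1, Atf2 and Atf7 were followed across the 8 RNA sequencing libraries of MC3T3-E1, a mouse pre-osteoblast line from the calvaria, with cranial bone as the labelled tissue. The 6 genes are 6 of the 28901 genes of the count table, and all 6 were among the 17038 genes kept for testing. Creb5 was chosen by its measured increase between Brd and control, the largest among named genes that passed the test with at least 10 CPM in Brd (CPM are counts put on 1 library size). The other 5 were taken because they belong to the same family. Creb5 was 11.6-fold higher in Brd, and the genes next to it in that order were Ccn2 at 9.31-fold, Mcam at 8.52-fold and Cemip at 6.28-fold. These values chose the gene, so for all 6 genes Brd against control is described with no p, and so is every comparison of Creb5 that uses a library of Brd or control.

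The libraries fall into 4 groups of 2, which the titles call control, Brd, NM-DMSO and NM-Brdi, all from the same cell line. Per the series' design text, cells received DMSO, the vehicle, or 10 µM of I-BRD9, which blocks the bromodomain of BRD9, and differentiation was driven with glycerol phosphate, ascorbic acid and 0.1 µM dexamethasone. The titles do not say what the Brd and control cultures received, which cultures had the osteogenic medium or what the prefix NM means, so groups are called by their titles. The labels do not state separate cultures within a group, so p-values reflect only how far these libraries spread, and that spread may be technical.

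CREB and ATF proteins are basic leucine zipper transcription factors that bind DNA as dimers, typically at the cAMP response element (CRE). CREB1, ATF1 and CREM form one subfamily: protein kinase A phosphorylates them when cAMP rises, and the phosphorylated activators recruit the acetyltransferases CBP and p300. ATF2, ATF7 and CREB5 form another, which is phosphorylated by the stress kinases JNK and p38 (shown for ATF2 and ATF7) and pairs with Jun proteins at CRE-like and AP-1 sites. In osteoblasts, parathyroid hormone acts through its receptor and cAMP on the first subfamily. BRD9, the target of I-BRD9, is a subunit of the non-canonical BAF chromatin remodelling complex. In cattle, CREB5 has been tied to expression of the lubricant gene Prg4 in articular chondrocytes.

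Creb5 lies on chromosome 6, from 53287270 to 53700376 on the plus strand of GRCm38, and RefSeq places transcription starts at both an upstream and an internal position of the gene. The 250 bases before each start are shown because Creb5 was the member that differed most between groups, and because the motifs of its own family were found there. The capitals mark a full CRE (TGACGTCA) in the upstream promoter, chr6:53287053-53287302, and an AP-1 site (TGACTCA) in the internal promoter, chr6:53573124-53573373, both on the plus strand and both from RefSeq on GRCm38.p6.
Creb5 upstream promoter: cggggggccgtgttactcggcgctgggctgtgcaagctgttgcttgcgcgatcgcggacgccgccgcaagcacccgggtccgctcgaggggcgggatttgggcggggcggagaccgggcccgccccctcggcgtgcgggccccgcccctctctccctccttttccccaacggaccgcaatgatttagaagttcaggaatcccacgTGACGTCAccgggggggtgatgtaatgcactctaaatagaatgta
Creb5 internal promoter: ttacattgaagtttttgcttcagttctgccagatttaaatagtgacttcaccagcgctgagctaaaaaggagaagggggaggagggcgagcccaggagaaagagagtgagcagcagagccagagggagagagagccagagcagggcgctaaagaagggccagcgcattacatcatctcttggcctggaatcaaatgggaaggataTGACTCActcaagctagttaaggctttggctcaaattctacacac
The CRE ran from position -45 to -38 and the AP-1 site from -45 to -39, counted from the start. Both motifs were searched on both strands of windows that also held the first bases after the start, and the letters of one do not occur within the other. A full CRE was found in 588 of 32851 promoters of the RefSeq table (1.79%) and the AP-1 letters in 1709 (5.20%). Neither was found in the windows of Creb1, Atf1, Atf2 and Atf7, and Crem was not matched. A match describes the letters only, and counts per gene do not show from which start Creb5 was transcribed.

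The libraries held 16918182 to 24555028 counts, and 1 CPM, scaled with TMM factors, stood for 16.4 to 26.1 counts. The NM-DMSO libraries differed most from each other, with 1250 tested genes over 2-fold apart against 26 to 91 in the other groups. Processed pseudogenes held 21.2% of the counts of NM-DMSO replicate 1, 18% of replicate 2, 17.3% to 17.4% of the NM-Brdi libraries and 14.8% to 15.2% of the others. All 10 osteoblast markers listed were above 1 CPM, with summed levels of 14000 to 14200 CPM for Brd, 15400 to 16300 for control, 9040 to 9220 for NM-Brdi and 10900 to 13500 for NM-DMSO. Of these 10 markers 6 were called lower and 0 higher both in Brd against control (median log2 fold change -0.68) and in NM-Brdi against NM-DMSO (median -0.74), and the part of this in the results below was not tested. Of the 7 chondrocyte markers 3 reached 1 CPM in at least 1 library. Sums were 267 to 278 CPM for Brd, 317 to 328 for control, 216 to 218 for NM-Brdi and 199 to 250 for NM-DMSO. Comp, 1 of these 3, had 0.728 and 1.43 CPM in NM-Brdi. Of the 6 macrophage and osteoclast markers 3 reached 1 CPM in at least 1 library, Csf1r only in Brd (0.92 and 1.16 CPM). No adipocyte, endothelial or epithelial marker in the table reached 1 CPM. Of the 5 skeletal muscle markers 3 were in the table and 1, Des, was above 1 CPM, with 0.92 to 1.16 CPM in Brd, 2.92 to 3.19 in control, 0.437 to 0.843 in NM-Brdi and 1.65 to 2.23 in NM-DMSO. In bulk libraries, fewer cells that express a gene and less of its RNA per cell cannot be told apart.

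Creb5 was low in control and about an order of magnitude higher in Brd. It had 338 and 301 counts in Brd, or 20.6 and 17.3 CPM. Control had 30 and 29 counts, or 1.54 and 1.73 CPM. Both Brd libraries stood far above both control libraries. Means were 19.0 ± 2.35 and 1.63 ± 0.130 CPM (SD, n = 2), and the fitted log2 fold change was 3.53 (SE 0.28). Leaving out any 1 of the 8 libraries gave 3.40 to 3.66. Brd9 itself stood at 24.1 ± 0.0701 CPM in the Brd libraries against 30.1 ± 1.33 in those of control (SD, n = 2). In NM-Brdi it stood at 28.7 ± 0.593 CPM against 30.7 ± 0.252 in NM-DMSO. Neither difference passed the edgeR test (log2 fold change -0.32, adjusted p = 0.13, and -0.10, adjusted p = 0.591). Prg4 stood at 0.122 to 0.794 CPM over all 8 libraries.

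**Figure D1:**
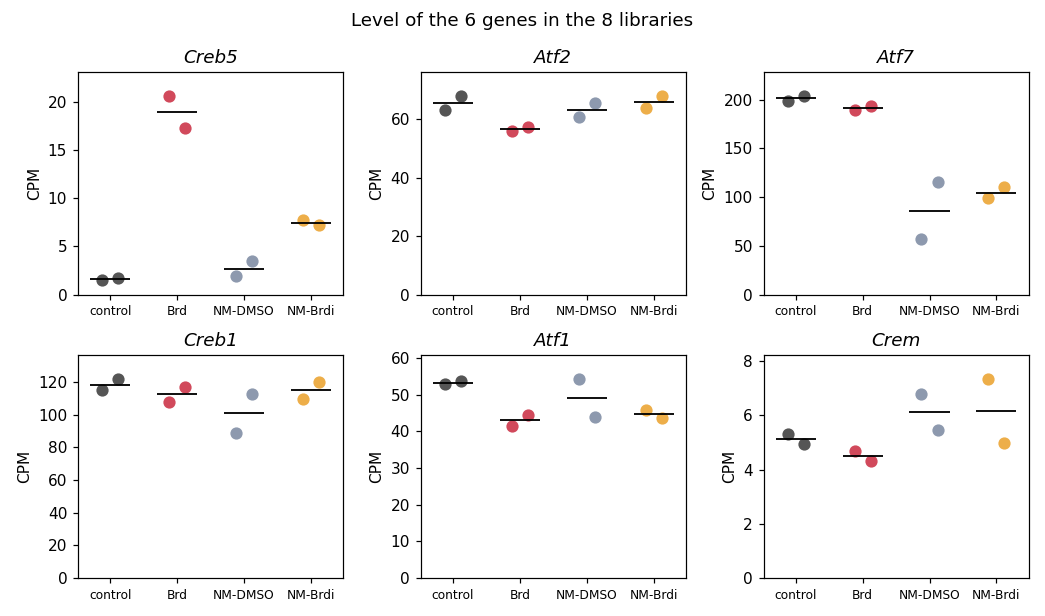
Level of the 6 genes in CPM (vertical axis, from 0 and scaled separately for each gene) in the 4 groups, with 1 point per library and a line at the mean of the 2 libraries. The Creb5 points of Brd, at 17.3 and 20.6 CPM, lie above those of every other group, and the Atf7 points of Brd and control, at 189 to 204 CPM, lie above those of NM-Brdi and NM-DMSO.

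Creb5 was also higher in NM-Brdi than in NM-DMSO, a pair that shares no library with the one that chose it. It had 7.74 and 7.19 CPM in NM-Brdi (202 and 181 counts) and 1.94 and 3.43 CPM in NM-DMSO (39 and 77 counts). Both NM-Brdi libraries were above both NM-DMSO libraries. The mean was 7.46 ± 0.389 CPM against 2.68 ± 1.06 CPM (SD, n = 2). The log2 fold change was 1.47 (SE 0.26), or 2.76-fold, and passed the edgeR quasi-likelihood test (adjusted p = 0.0418). That fit took 1 spread per gene from all 8 libraries, those of Brd and control included. Creb5 had to pass in Brd against control to be chosen, so this test is not independent of the choice. A gene was called when its adjusted p, corrected over all 17038 genes, was under 0.05. The call was kept in 2 of the 8 fits that left out 1 library: the log2 fold change was 1.13 without NM-DMSO replicate 1 (adjusted p = 0.000464) and 1.94 without NM-DMSO replicate 2 (adjusted p = 3.24e-07). It was lost without any 1 of the 6 libraries of the other groups (adjusted p = 0.117 to 0.372), although the log2 fold change stayed between 1.41 and 1.52 there. The call was also lost with the 4 libraries of the pair alone (adjusted p = 0.413) and with limma voom and quality weights (adjusted p = 0.339).

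The differences of the pairs were of unlike size. The log2 fold change was 3.53 in Brd against control and 1.47 in NM-Brdi against NM-DMSO, so the interaction was 2.07 (SE 0.39). It holds the contrast that chose Creb5 and is given without a test. Leaving out 1 library moved it between 1.59, without NM-DMSO replicate 2, and 2.40, without NM-DMSO replicate 1.

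Creb5 levels ran from Brd over NM-Brdi and NM-DMSO to control, and no groups overlapped. As a description, since these comparisons use the groups that chose the gene, Brd exceeded NM-Brdi by 1.34 on the log2 scale (SE 0.24, 2.54-fold), and leaving out 1 library gave 1.22 to 1.47. The closest neighbours in this order were NM-DMSO and control, with control minus NM-DMSO at -0.72 (SE 0.30). The NM-DMSO libraries, 1.77-fold apart, were farther from each other than the lower of them was from control. The difference depended on 1 library, since it was -1.07 without NM-DMSO replicate 1 and -0.25 without NM-DMSO replicate 2. The part of the pseudogene share, which was highest in NM-DMSO replicate 1, was not tested.

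**Figure D2:**
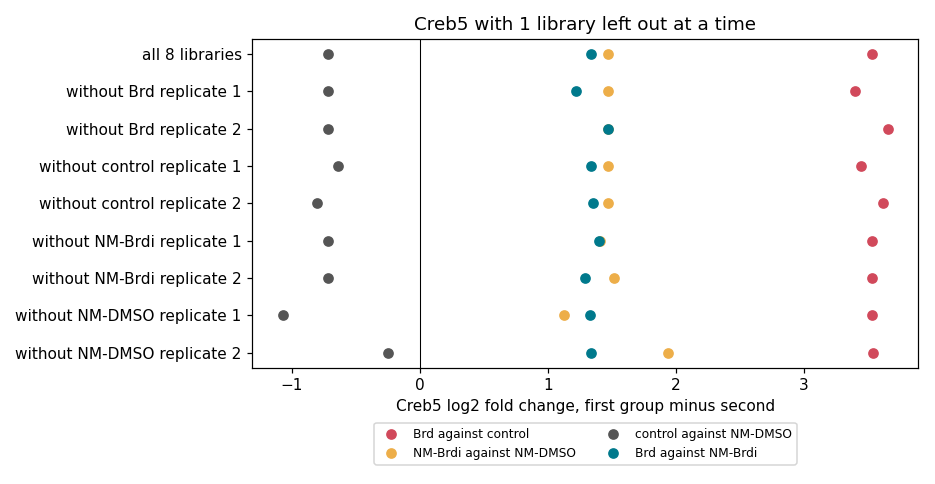
Fitted log2 fold change of Creb5 (horizontal axis) in 4 comparisons (colours), with all 8 libraries and with each library left out in turn (rows). Brd against control stays between 3.40 and 3.66, while NM-Brdi against NM-DMSO and control against NM-DMSO move most in the rows that leave out an NM-DMSO library.

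Atf7, the closest relative of Atf2 and like it a partner of Jun, was the other member that passed a test. Its CPM values were 189 and 193 for Brd, 199 and 204 for control, 99.2 and 110 for NM-Brdi, and 56.9 and 115 for NM-DMSO. Levels were thus higher in both groups without the prefix NM, with no overlap, and the NM-DMSO libraries were 2.03-fold apart and enclosed those of NM-Brdi. Atf7 was higher in control than in NM-DMSO by 1.23 on the log2 scale (SE 0.28, 2.34-fold, edgeR adjusted p = 0.0236). The value was 0.81 without NM-DMSO replicate 1 (adjusted p = 4.54e-09) and 1.83 without replicate 2 (adjusted p = 3.82e-15). It lost the call without any 1 of the other 6 libraries (adjusted p = 0.0574 to 0.133) and with the 4 libraries alone (adjusted p = 0.149).

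Between Brd and NM-Brdi the Atf7 difference was 0.86 on the log2 scale (SE 0.27) and missed the threshold (adjusted p = 0.0919). It passed in the fits without NM-DMSO replicate 1 (adjusted p = 2.23e-11) or replicate 2 (adjusted p = 1.45e-11), which take no spread from that group. The value was 0.85 and 0.87 in those fits. It also passed without a filter on low counts (adjusted p = 2.06e-07), with the DESeq2 Wald test (adjusted p = 0.0179), with voom (adjusted p = 3.37e-08) and with the 4 libraries alone (adjusted p = 9.87e-08). The log2 fold change of Atf7 was -0.08 (SE 0.27) in Brd against control, given without a test. It was 0.28 (SE 0.27, adjusted p = 0.552) in NM-Brdi against NM-DMSO. The latter was -0.13 without NM-DMSO replicate 1 and 0.88 without replicate 2 (adjusted p = 0.231 and 1.60e-09), so its direction rested on 1 library.

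Atf2, the founding member of the subfamily and a target of JNK and p38, had the narrowest range of the 6 genes over the libraries. Levels in CPM were 56.1 and 57.3 for Brd, 63.2 and 68.0 for control, 63.8 and 68.0 for NM-Brdi, and 60.6 and 65.4 for NM-DMSO. Both Brd libraries were below all 6 others. The log2 fold change was -0.21 (SE 0.10) in Brd against control, given without a test, and -0.22 (SE 0.10, adjusted p = 0.217) in Brd against NM-Brdi. It was 0.06 in NM-Brdi against NM-DMSO and in control against NM-DMSO (adjusted p = 0.710 and 0.673). Without NM-DMSO replicate 1 or 2 the difference between Brd and NM-Brdi was called (adjusted p = 0.00701 and 0.012), at -0.23 and -0.22. It was also called with voom (adjusted p = 0.0197) and with the 4 libraries alone (adjusted p = 0.0196).

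Creb1, the main effector of cAMP signalling to transcription, stood at similar levels in all groups. The Brd libraries had 108 and 117 CPM, control 115 and 122, NM-Brdi 110 and 120, and NM-DMSO 88.8 and 113. The groups overlapped except NM-DMSO with control. Log2 fold changes were -0.08 (SE 0.13) in Brd against control and -0.03 in Brd against NM-Brdi (adjusted p = 0.905). They were 0.19 in NM-Brdi against NM-DMSO (adjusted p = 0.414) and 0.23 in control against NM-DMSO (adjusted p = 0.205). These last values depended on 1 library. They were 0.03 and 0.07 without NM-DMSO replicate 1, and 0.37 and 0.42 without NM-DMSO replicate 2.

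Atf1, a partner of CREB1 in dimers, had 41.5 and 44.5 CPM in Brd against 52.8 and 53.7 CPM in control, without overlap. NM-Brdi had 45.8 and 43.7 CPM and NM-DMSO 54.3 and 43.9 CPM, so that both NM groups overlapped. The log2 fold change was -0.31 (SE 0.13) in Brd against control, given without a test, and -0.13 in NM-Brdi against NM-DMSO (adjusted p = 0.536). The latter was 0.03 without NM-DMSO replicate 1 and -0.28 without replicate 2, so its direction rested on 1 library. In control against NM-DMSO Atf1 was at 0.12 (adjusted p = 0.491), and at 0.28 and -0.03 in those fits. Its values are uncertain, because 810 of the 2365 bases of its longest transcript matched the pseudogene Atf1-ps at 98.4% identity and reads may be shared. Levels of Atf1-ps were 33.0 to 35.3 CPM for Brd, 40.9 to 42.2 for control, 27.6 to 29.7 for NM-Brdi, and 11.9 and 30.8 for NM-DMSO.

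Crem encodes both activators and, from an internal start, the short repressor ICER, and counts per gene cannot separate them. The Brd libraries had 4.70 and 4.31 CPM, control 5.30 and 4.94, NM-Brdi 7.35 and 5.00, and NM-DMSO 6.80 and 5.48. Both Brd libraries were below all others. No comparison tested passed, with log2 fold changes of 0.01 in NM-Brdi against NM-DMSO (adjusted p = 0.979), -0.26 in control against NM-DMSO (adjusted p = 0.422) and -0.46 in Brd against NM-Brdi (adjusted p = 0.274), and the value of Brd against control was -0.19 (SE 0.24). Crem shares 472 bases of exon with the antisense gene Gm6225 (916 against 89 counts over all libraries), whose reads cannot be told apart without a stated strand setting.

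**Figure D3:**
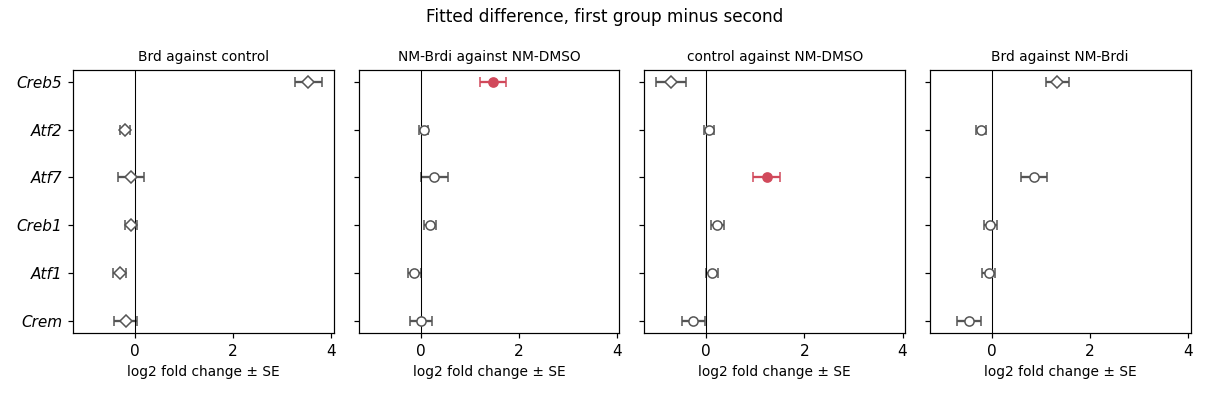
Fitted log2 fold change of the 6 genes (horizontal axis, bars give 1 SE) in 4 comparisons, first group minus second, with diamonds for values given with no test and circles for tested ones, filled where the adjusted p was under 0.05. Creb5 lies apart from the other 5 genes in Brd against control, where its value of 3.53 chose it, Creb5 at 1.47 is the filled circle of NM-Brdi against NM-DMSO, and Atf7 at 1.23 that of control against NM-DMSO.

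Across the comparisons, 1 of the 6 genes, Creb5, was called in NM-Brdi against NM-DMSO, where 1.87% of all tested genes were called (0.816% higher and 1.05% lower). In control against NM-DMSO 1 of the other 5 genes, Atf7, was called, where 23.4% of all genes were (12% higher and 11.5% lower). Every comparison other than NM-Brdi against NM-DMSO uses Brd or control values that chose Creb5, and nothing is read from their counts. In Brd against NM-Brdi 0 of the other 5 genes were called by edgeR and 1 by DESeq2, Atf7, where 10.5% of all genes were called (6.73% higher and 3.77% lower). In Brd against control 6.58% of all genes were called (3.13% higher and 3.45% lower), and Creb5 was among them because passing was part of the rule that chose it. For the interaction the share over all genes was 0.0411% (0.0117% higher and 0.0293% lower). The comparisons share libraries: control against NM-DMSO and Brd against NM-Brdi use the groups of the other comparisons.

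Levels of different genes were compared as CPM per kilobase of merged exons. On this scale Creb5 was the lowest of the 6 genes in every group, at 0.758 ± 0.0939 for Brd, 0.0653 ± 0.00520 for control, 0.298 ± 0.0155 for NM-Brdi and 0.107 ± 0.0422 for NM-DMSO (SD, n = 2). In Brd it was within the spread of Crem, at 0.764 ± 0.0465 CPM per kilobase. By the length of the longest transcript the order of these genes was the other way, with Creb5 at 2.40 ± 0.297 and Crem at 1.54 ± 0.0935 CPM per kilobase in Brd. Atf7 had the highest level in Brd and control (17.4 and 18.4 CPM per kilobase of merged exons) and Atf1 in NM-Brdi and NM-DMSO (14.6 and 16.0), as far as its reads can be assigned. Creb1 had 7.34 to 8.64 and Atf2 6.92 to 8.05 CPM per kilobase over the groups.

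Within the ATF2 subfamily, the share of Creb5 in the summed CPM per kilobase of Creb5, Atf2 and Atf7 was small in all libraries. It was 3.32% and 2.74% for Brd, 0.238% and 0.256% for control, 1.81% and 1.54% for NM-Brdi, and 0.611% and 0.736% for NM-DMSO. The groups did not overlap, and Atf7 and Atf2 made up the rest everywhere. With longest transcripts the share in Brd was 6.16% and 5.11%.

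The genes whose levels ran most like Creb5 over the 8 libraries were Tspyl1, Fbn1, Daam1, Csnk1e and Gramd4. They had the highest Pearson r of log2(CPM + 0.5) with Creb5 among 9305 genes with a mean of at least 10 CPM, from 0.991 to 0.996, and were the same 5 genes with 2 CPM added. Fbn1, which encodes the microfibril protein fibrillin-1, had means of 162 CPM for Brd, 46.2 for control, 104 for NM-Brdi and 61.0 for NM-DMSO. Daam1, a formin-family regulator of actin, had 61.0, 24.1, 42.3 and 25.8 CPM in the same order. All 5 genes kept the order of groups seen for Creb5 over a narrower range, and picking them by likeness favours that order. Csnk1e, a casein kinase, had 80.2, 50.3, 64.7 and 54.5 CPM. Tspyl1 had 216, 173, 198 and 181 CPM, and Gramd4 had 28.9, 12.7, 19.4 and 14.2 CPM. The relatives of Creb5 ran less like it, with r of 0.16 for Creb1, -0.37 for Crem, -0.86 for Atf1, -0.61 for Atf2 and 0.23 for Atf7. These correlations describe 8 libraries in 4 groups and carry no p.

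Within 1 Mb of Creb5, 22 genes were in the table and 11 were tested. In Brd against control edgeR called 0 of them, with 0 at an unadjusted p under 0.05, while DESeq2 called 0 and voom 3. In NM-Brdi against NM-DMSO edgeR called 0, with 4 at an unadjusted p under 0.05, and DESeq2 and voom called 0. Jazf1, which encodes a zinc finger protein and is the nearest gene in the table upstream at 219 kb, had 92.1 and 97.7 CPM in Brd against 80.0 and 84.3 in control. NM-Brdi had 43.7 and 44.4 CPM and NM-DMSO 22.0 and 35.1. Its levels parted the groups by the prefix NM, and it was called in control against NM-DMSO (1.52, adjusted p = 0.00282) and in Brd against NM-Brdi (1.11, adjusted p = 0.0117), the latter lost without any 1 library of Brd or NM-Brdi (adjusted p = 0.0830 to 0.123). Fkbp14, an endoplasmic reticulum prolyl isomerase, was the other gene called there (0.63, adjusted p = 0.00402, and 0.72, adjusted p = 0.00281), and the first call was lost without either control library (adjusted p = 0.0514 and 0.0684). Tril, the nearest gene downstream at 115 kb, had 2.76 to 4.48 CPM and was called in no comparison with all 8 libraries. In Brd against NM-Brdi (-0.60, adjusted p = 0.106) it was called without NM-DMSO replicate 1 or 2 (adjusted p = 0.0199 and 0.0229), with voom (adjusted p = 0.0238) and with the 4 libraries alone (adjusted p = 0.0298).

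The pathway around these factors was read from 7 lists with 108 genes, of which 100 were in the table and 84 were tested. The lists were drawn up with earlier results of these data known, so the shares below are a description and no test of the pathway. In Brd against control 9 were called higher and 4 lower (15.5% of 84, against 6.58% of all genes). In NM-Brdi against NM-DMSO 3 were higher and 3 lower (7.14%, against 1.87%), in control against NM-DMSO 20 and 7 (32.1%, against 23.4%), and in Brd against NM-Brdi 18 and 5 (27.4%, against 10.5%). The median log2 fold change of the 84 genes was 0.12 to 0.15 in these comparisons, against -0.02 to 0.00 over all tested genes. Counts within single lists below are to be read beside the shares of all genes called that are given here. Of the called list genes that the naming rule takes, 0 of 10 in Brd against control and 0 of 6 in NM-Brdi against NM-DMSO kept it whichever library was left out. In control against NM-DMSO 6 of 16 did (Fosl1, Mapk14, Nfil3, Per1, Rps6ka5 and Sik1) and in Brd against NM-Brdi 7 of 17 (Btg2, Creb3l1, Mapk14, Nfil3, Pde1a, Per1 and Sik1). The log2 fold changes of all these genes kept their direction in these 8 fits.

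Upstream of the factors, of 9 tested receptors, G protein and adenylyl cyclase genes 1 was called in Brd against control and in NM-Brdi against NM-DMSO, the receptor of parathyroid hormone. Pth1r had 55.1 and 58.1 CPM in Brd against 127 and 130 in control, while NM-Brdi had 33.8 and 46.9 CPM against 124 and 207 in NM-DMSO. Brd lay below control, and NM-Brdi below NM-DMSO, without overlap. Pth1r fell by 1.18 on the log2 scale in Brd (SE 0.24, adjusted p = 0.0295) and fell by 2.04 in NM-Brdi (SE 0.25, adjusted p = 0.0124). Both calls were lost without any 1 library outside NM-DMSO (adjusted p = 0.0532 to 0.233 and 0.0510 to 0.207). Adcy7, an adenylyl cyclase, was higher in both groups without the prefix NM (1.35 in control, adjusted p = 0.00916, and 1.19 in Brd, adjusted p = 0.0150). The first call was lost without either control library (adjusted p = 0.0581 and 0.0822), the second without any 1 library of Brd or NM-Brdi (adjusted p = 0.0745 to 0.139).

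Of 11 tested phosphodiesterases, which degrade cAMP, Pde1b alone was called in Brd against control. It had 1.28 and 1.90 CPM in Brd against 4.22 and 4.29 in control (-1.41, adjusted p = 0.0201), a call lost without any 1 library outside NM-DMSO (adjusted p = 0.0545 to 0.183). In NM-Brdi against NM-DMSO edgeR called 0, with 1 at an unadjusted p under 0.05. Pde1a and Pde4b were lower and Pde10a higher in the groups without the prefix NM. Pde1a had 0.443 CPM in Brd and 5.20 in NM-Brdi, Pde4b 0.957 and 5.92, and Pde10a 38.9 and 16.9 (means, adjusted p = 0.00263, 0.00524 and 0.00904). Pde1a kept this call whichever library was left out, Pde4b lost it without Brd replicate 2 or NM-Brdi replicate 1 (adjusted p = 0.0561 and 0.0589), and Pde10a lost it without any 1 library of either group (adjusted p = 0.0621 to 0.107).

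Of 18 tested kinases 1 was called in Brd against control and 1 in NM-Brdi against NM-DMSO. Rps6ka2, a ribosomal S6 kinase, was higher in Brd, by 1.49-fold (adjusted p = 0.0251), but shares 3110 bases of transcript with Sod2 and is uncertain. Rps6ka5, which encodes the CREB kinase MSK1, had 54.2 and 58.6 CPM in NM-Brdi against 33.8 and 37.8 in NM-DMSO, a log2 difference of 0.66 (SE 0.10, adjusted p = 0.0289). Both calls were lost without any 1 library outside NM-DMSO (adjusted p = 0.0680 to 0.239 and 0.109 to 0.348). Mapk14, which encodes p38α, had 221 to 229 CPM in Brd and 255 to 257 in control, against 120 to 126 in NM-Brdi and 121 to 123 in NM-DMSO. It was higher in both groups without the prefix NM (1.06 in control, adjusted p = 0.000436, and 0.87 in Brd, adjusted p = 0.00125). Prkar2a, a regulatory subunit of protein kinase A, was higher there too (0.60 and 0.52, adjusted p = 0.0108 and 0.0230). Of the 18 kinases 3 were called higher and 2 lower in control against NM-DMSO, and 4 and 1 in Brd against NM-Brdi. Lower in control were Prkaca (-0.55, adjusted p = 0.0177) and Prkar1a (-0.35, adjusted p = 0.0359), both named after their values were seen. Prkar1a was also lower in Brd than in NM-Brdi (-0.39, adjusted p = 0.0382). Calls of Prkaca and Prkar1a were not followed in the fits that left out 1 library. Those calls of Prkar2a were lost without either control library (adjusted p = 0.101 and 0.102) and without any 1 library outside NM-DMSO (adjusted p = 0.0758 to 0.202).

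Of 10 tested coactivators and inhibitors of the pathway, 1 was called in Brd against control and 0 in NM-Brdi against NM-DMSO by edgeR (2 at an unadjusted p under 0.05). The former was Pkia, an inhibitor of protein kinase A, at very low level: 14 and 12 counts in Brd against 0 and 2 in control, a ratio of 13.9 with a 95% counting interval of 3.49 to 121. Its call was lost without any 1 library outside NM-DMSO (adjusted p = 0.0997 to 0.236). Sik1, the CRTC kinase that is itself a CREB target, had 36.1 to 37.8 CPM in Brd and 29.0 to 33.6 in control, against 9.25 to 10.1 in NM-Brdi and 6.00 to 7.97 in NM-DMSO. It was called higher in the groups without the prefix NM (2.16 and 1.93, adjusted p = 0.000325 and 0.000538), as was Ep300, which encodes p300 (0.92 and 0.81, adjusted p = 0.0152 and 0.0289). The calls of Ep300 were lost without either control library (adjusted p = 0.107 and 0.109) and without any 1 library outside NM-DMSO (adjusted p = 0.0783 to 0.211). Crebbp, which encodes CBP, had group means of 69.3 to 82.2 CPM and was not called.

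Of the 8 Jun and Fos partners, with which ATF2, ATF7 and CREB5 can pair, 3 were called higher and 1 lower in Brd against control. Over all genes the shares were 3.13% and 3.45%. Jun had 106 and 116 CPM in Brd against 48.2 and 55.8 in control, without overlap (1.10, SE 0.15, adjusted p = 0.00754). Jdp2, a repressor of AP-1, had 103 and 106 CPM against 57.6 and 58.4 (0.85, adjusted p = 0.0113). Jund, named after its values were seen, had 48.9 and 54.4 CPM against 15.9 and 16.7 (1.67, adjusted p = 0.0153). The call of Jund was not followed in the fits that left out 1 library. Fosl1 was lower, with 8 and 12 counts in Brd against 49 and 49 in control (-2.19, adjusted p = 0.0136), but overlaps Ccdc85b over 1163 bases of exon (175 against 9017 counts over all libraries) and is uncertain. The calls of Jun, Jdp2 and Fosl1 were each lost without any 1 library of Brd or control (adjusted p = 0.0690 to 0.162). In NM-Brdi against NM-DMSO edgeR called 0 of the 8, with 5 at an unadjusted p under 0.05, and Jun had 54.4 and 68.2 CPM against 44.1 and 51.8.

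Of 14 tested other ATF and CREB genes, edgeR called 0 in Brd against control, with 5 at an unadjusted p under 0.05. In NM-Brdi against NM-DMSO 2 were lower. Creb3l1, the endoplasmic reticulum stress factor OASIS known for its role in bone collagen synthesis, had 68.9 and 74.3 CPM in NM-Brdi against 132 and 144 in NM-DMSO (-0.95, SE 0.10, adjusted p = 0.00828). Atf5 had 73.7 and 77.1 CPM against 116 and 164 (-0.89, adjusted p = 0.0430). The call of Creb3l1 was lost without any 1 library of control or NM-Brdi (adjusted p = 0.0515 to 0.158), and that of Atf5 without any 1 library outside NM-DMSO (adjusted p = 0.124 to 0.456). In control against NM-DMSO 6 of the 14 were called higher and 0 lower (12% and 11.5% over all genes). Among the 6 were Nfil3, Atf6 and Creb3l2 (1.60, 0.92 and 0.74). Nfil3 kept its call whichever library was left out, Atf6 lost it without either control library (adjusted p = 0.0606 and 0.063), and Creb3l2 without any 1 library outside NM-DMSO (adjusted p = 0.0538 to 0.137).

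Of 19 tested genes known as CRE-driven targets, 4 were called higher and 1 lower in Brd against control (3.13% and 3.45% over all genes). Bdnf, a neurotrophin gene and a classic CREB target, had 22.1 and 30.2 CPM in Brd against 6.33 and 7.92 in control, and NM-Brdi had 14.2 and 18.6 CPM against 4.02 and 6.06 in NM-DMSO. Brd lay above control, and NM-Brdi above NM-DMSO, without overlap (1.88, SE 0.26, adjusted p = 0.00804, and 1.70, SE 0.26, adjusted p = 0.0275). Egr1 was the other gene called in both pairs (0.81, adjusted p = 0.0131, named after its values were seen, and 0.69, adjusted p = 0.0418). Btg2 was higher in Brd (0.90, adjusted p = 0.00582). So was Vgf, named after its values were seen, with 23 and 36 counts in Brd against 6 and 6 in control. The calls of Vgf and Egr1 in Brd were not followed in the fits that left out 1 library. Ccna2, which encodes cyclin A2, fell by 0.91 (adjusted p = 0.00320) and overlaps exons of Exosc9 over 510 bases.

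Leaving out 1 library ended the calls of Btg2 and Ccna2 when it was one of Brd or control (adjusted p = 0.0541 to 0.1), and that of Bdnf in Brd without Brd replicate 1 or either control library (adjusted p = 0.0831 to 0.11). In NM-Brdi the calls of Bdnf and Egr1 were lost without any 1 library outside NM-DMSO (adjusted p = 0.0765 to 0.355). Of these 19 genes 6 were called higher and 3 lower in control against NM-DMSO (12% and 11.5% over all genes). In Brd against NM-Brdi 5 were called higher and 2 lower (6.73% and 3.77% over all genes). Per1, a clock gene, had 141 to 147 CPM in Brd and 136 to 145 in control against 33.0 to 33.1 in NM-Brdi and 27.5 to 29.0 in NM-DMSO (2.12 and 2.32, adjusted p = 4.03e-05 and 4.66e-05). A full CRE was found in the promoters of 5 of the 17 listed target genes with a promoter in the RefSeq table (29.4%). Over all genes it was found in 549 of 27025 (2.03%), and in 0 of the 7 Jun and Fos genes. The target list was drawn up from genes known as CRE-driven, so its higher share was built in.

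**Figure D4:**
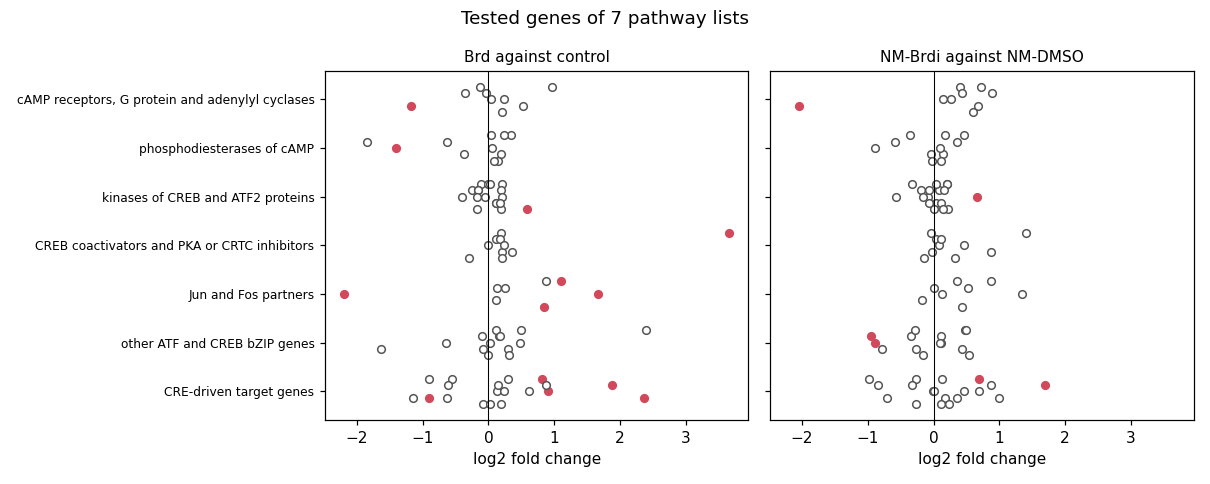
Fitted log2 fold change (horizontal axis) of the tested genes of 7 pathway lists (rows) in Brd against control and in NM-Brdi against NM-DMSO, 1 point per gene, filled where the adjusted p was under 0.05. Pth1r is the filled point of the first row in both panels, at -1.18 and -2.04, and the Jun and Fos row has 4 filled points in Brd against control and 0 in NM-Brdi against NM-DMSO.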

How the data were processed

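RNA was sequenced from 8 libraries of MC3T3-E1 cells. The submitters' processing notes name STAR 2.7.10a, featureCounts 2.0.3, Trimmomatic 0.39 and FastQC 0.11.9, beside the genome builds GRCm38 and GRCh38. The deposited values are unnormalised whole-number read counts per gene. For strand setting, annotation release and multiply mapping reads, the sources used here give no choice. Groups follow the sample titles.

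Counts were filtered with filterByExpr, scaled with TMM and fitted with edgeR 4.0.16 (quasi-likelihood, R 4.3.3) in 1 model of 8 libraries with 4 group terms. P-values were adjusted by Benjamini-Hochberg over 17038 genes, and calls needed an adjusted p under 0.05. Fold changes are fitted log2 ratios with their SE, and the biological coefficient of variation was 0.148. The pipeline was tested on simulated data. The replicates of each group differed by more than counting noise. Symbols were matched to GENCODE M21 (96.9%), which was not stated to be the counting annotation. Shared sequence was sought with BLAST+ 2.17.0 (at least 200 bases at 95% identity). Promoters are from RefSeq, GRCm38.p6.

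The members and lists were chosen with earlier results of these data known. Named genes are the 6 members, up to 3 called genes of smallest p per list and comparison, the 5 genes most like Creb5, and called or nearest neighbours within 1 Mb. Alternatives were DESeq2 1.42.0 size factors, no filter, the DESeq2 Wald test, limma 3.58.1 voom with quality weights, the 4 libraries of a pair alone, a replicate block, each library left out, and another length per gene.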

Additional observations from a re-analysis of the deposited data

How the results depend on the processing

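Creb5 kept its direction in every comparison under all alternatives run. Its call in NM-Brdi against NM-DMSO was lost with voom (1.49), with a replicate block (1.48) and with the 4 libraries of the pair alone (1.48). Over the fits without 1 library its log2 fold change ranged from 1.13 to 1.94 in NM-Brdi against NM-DMSO, from 1.22 to 1.47 in Brd against NM-Brdi and from -1.07 to -0.25 in control against NM-DMSO. The cause was not tested. The labels do not state whether replicate numbers pair the libraries. Same-numbered deviations correlated by 0.190 between NM-Brdi and NM-DMSO and by -0.008 to 0.053 between the other groups. These correlations cannot settle whether the libraries are paired. The block gave 188 called genes in NM-Brdi against NM-DMSO in place of 318, 0 members in place of 1 and 2 pathway genes in place of 6. Counts of called genes moved as follows. In Brd against control (1121) they were 1848 without a filter, 5876 with voom and 6413 with the pair alone. In NM-Brdi against NM-DMSO they were 2453 without a filter, 917 with DESeq2, 144 with voom and 0 with the pair alone. In control against NM-DMSO (3988) they were 6274 without a filter, 2597 with voom and 371 with the pair alone. In Brd against NM-Brdi (1789) they were 3198 without a filter, 7380 with voom and 7215 with the pair alone. For the interaction (7) they were 608 without a filter, 300 with DESeq2 and 154 with voom. Over the fits without 1 library the counts ranged from 36 to 5539, 8 to 9577, 556 to 11265, 396 to 7691 and 0 to 7458 in the same order. Nothing is read from the counts of members in comparisons with Brd or control libraries, which chose Creb5. Members called were 0 with voom and 0 with the pair alone in NM-Brdi against NM-DMSO (1). Among the relatives of Creb5 they were 0 with the pair alone in control against NM-DMSO (1, Atf7). Both of these counts also moved when 1 library was left out. Counts of members called are not given for Brd against control, Brd against NM-Brdi and the interaction. They would include tests of Creb5 on the values that chose it. Pathway genes called were 20 without a filter, 44 with voom and 47 with the pair alone in Brd against control (13). They were 16, 3 and 0 in NM-Brdi against NM-DMSO, and 7 with the pair alone in control against NM-DMSO (27). In Brd against NM-Brdi (23) they were 49 with voom and 50 with the pair alone. For the interaction (0) they were 8 without a filter, 6 with DESeq2 and 2 with voom. Without 1 library they ranged from 0 to 43, 0 to 46, 9 to 58, 9 to 52 and 0 to 40. Tax1bp1, a neighbour of Creb5, changed direction and was called in NM-Brdi against NM-DMSO without NM-DMSO replicate 1 (0.20, against -0.04). The other fold changes were rated the same in 1528 cases, while 67 newly passed the threshold and 189 newly missed it. The same meant an unchanged side of the threshold. For the relatives of Creb5 in Brd against control and the interaction, which have no test, it meant a shift smaller than the spread of their libraries. TMM and DESeq2 size factors put the median of all genes within 0.03 of 0. At 16.4 to 26.1 counts per CPM, Creb5 in control rested on 29 and 30 counts.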

Other observations

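Of 95 genes examined (tested pathway genes and neighbours of Creb5), 7 parted in opposite directions in Brd against control and NM-Brdi against NM-DMSO. To be counted, a gene needed libraries without overlap in either pair. Genes with opposite signs but overlapping libraries, such as Adcy5 (-0.36 and 0.89), were left out of the count. The share of all tested genes with this pattern was not determined. The count of 7 therefore has no baseline and is a description only. Creb3l1, the bone collagen factor OASIS, had a log2 fold change of 0.18 in Brd against control and -0.95 in NM-Brdi against NM-DMSO (interaction 1.13, edgeR adjusted p = 0.0555). Ccna2, which encodes cyclin A2, had -0.91 and 0.17 (interaction -1.09, adjusted p = 0.0555). Fosl1, uncertain because of its overlap with Ccdc85b, had -2.19 and 1.34 (interaction -3.52, adjusted p = 0.0810), and Rps6ka5, which encodes MSK1, had -0.18 and 0.66 (interaction -0.84, adjusted p = 0.0977). Atf4, Nr4a1 and Tril were the other 3 (adjusted p = 0.450 to 0.568). No interaction of the 84 tested pathway genes was called by edgeR, with 12 at an unadjusted p under 0.05, while DESeq2 called 6.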
